A study of Mus musculus with 103 samples.

Results

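The cytochrome P450 family is described here by the 63 members measured on mouse arrays that gave levels for 17097 genes. The members are the array's genes whose symbol begins with Cyp and a digit, each read by its probe set of highest mean. Of 68 such symbols, 5 (Cyp3a16, Cyp4a12a, Cyp7b1, Cyp1a2 and Cyp2e1) were not part of the set. The study set out to trace cells that express Prom1 in mouse organs and to activate oncogenic alleles in them. Its samples fall into 29 groups. Magnetic beads against Prominin1, the protein encoded by Prom1, gave 40 samples of sorted cells, and dissection gave 56 of primary tumours and 7 of metastases.

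Sorted liver cells were untreated (n = 5), taken after DDC, an agent used to injure bile ducts and hepatocytes (n = 9), or neonatal (n = 3). The other sorted cells came from small intestine (n = 3), kidney (n = 4), stomach (n = 2), salivary gland (n = 3), lung (n = 4), prostate (n = 3) and uterus (n = 4). The tumours compared with them were HCC/CC, which stands for hepatocellular carcinoma/cholangiocarcinoma (n = 14), hepatoblastoma (n = 2), adenoma of the small (n = 3) and large intestine (n = 5), gastric adenoma (n = 7), prostatic adenocarcinoma (n = 8) and uterine carcinoma (n = 3). The labels used here name no strain, genotype, oncogenic allele, sex or age beyond the word neonatal. Nothing in them tells if the replicates were different mice, so p-values cover the spread between these samples only, which may be technical. Sorted cells were extracted with a PicoPure kit and dissected tumours with an RNeasy Mini kit, so in each comparison of tumour with sorted cells the tumour, the way it was collected and the kit cannot be told apart.

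P450 enzymes carry a haem group that binds oxygen and insert an atom of it into their substrate. Most sit in the endoplasmic reticulum and take electrons from P450 oxidoreductase (Por), while a few in mitochondria take them from adrenodoxin (Fdx1). Liver enzymes of the 2a, 2b, 2c, 2d and 3a subfamilies clear drugs and other foreign compounds, many of them under control of the nuclear receptors CAR (Nr1i3) and PXR (Nr1i2). Others have defined substrates, among them cholesterol on its way to bile acids (Cyp7a1, Cyp8b1, Cyp27a1), retinoic acid (Cyp26a1, Cyp26b1), vitamin D (Cyp2r1, Cyp24a1, Cyp27b1) and steroid hormones (Cyp11a1, Cyp11b1, Cyp11b2, Cyp17a1, Cyp21a1).

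Values are log2 levels as deposited, given as mean ± SD, and differences are log2 differences ± the standard error of limma. That error pools the spread of all groups in a fit. Where many of them lie near background, it can understate the spread within a variable group, and the p-value may then be too small. A gene was tested when its mean was over the 40th percentile of the values in the fit, 4.06 in sorted cells, in at least 1 compared group, and called at an adjusted p under 0.05 and a difference of at least 1. Only called genes are said to rise, fall or be higher or lower. Levels under 4.06 lie near the background of the array, so a difference against such a level may be understated. Probe sets differ in brightness, so levels were compared between samples for 1 gene and not between genes.

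Prom1, used for the sort, stood at 10.67 to 10.81 in kidney and 10.23 to 10.38 in neonatal liver. It was 2.64 to 4.24 in untreated liver, near background, and 3.31 to 9.31 after DDC, where samples 1 and 2 lay under 4.06. Hepatocyte markers were high in all 3 liver groups. The mean level of 16 measured markers was 11.05 to 12.54 in untreated, 9.96 to 12.52 in DDC and 11.23 to 11.72 in neonatal samples. Endothelial markers averaged over 10 in 6 liver samples, untreated samples 1 and 2 and DDC samples 1, 2, 4 and 5. In kidney cells 8 of 8 tested proximal tubule and 6 of 6 loop of Henle and distal tubule markers were higher than in the other organs, and in small intestinal cells 10 of 10 tested enterocyte markers. A level in such bulk samples can fall because fewer cells of a type were present or because each held less RNA, which cannot be told apart.

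Promoters were taken from RefSeq (GRCm38.p6, 250 bases before to 50 after the start) for 46 members, and no promoter matched for 17. The 5 printed here are members that held a motif searched for, and many members named in the results are not printed. The capitals mark CAAAGTCCA, a form of the site bound by the hepatocyte factor Hnf4a, in the first 4, and AAGGTCA, the core site of many nuclear receptors, in the last. Both strands were searched, and all 5 matches read as written.
Cyp3a11, chr5:145879805-145880104, minus strand: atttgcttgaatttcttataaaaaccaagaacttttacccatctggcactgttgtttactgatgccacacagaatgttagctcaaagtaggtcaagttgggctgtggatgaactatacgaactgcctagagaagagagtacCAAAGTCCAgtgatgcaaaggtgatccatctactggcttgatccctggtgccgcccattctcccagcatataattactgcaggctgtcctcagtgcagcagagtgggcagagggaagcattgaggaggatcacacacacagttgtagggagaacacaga
Cyp3a41a, chr5:145720087-145720386, minus strand: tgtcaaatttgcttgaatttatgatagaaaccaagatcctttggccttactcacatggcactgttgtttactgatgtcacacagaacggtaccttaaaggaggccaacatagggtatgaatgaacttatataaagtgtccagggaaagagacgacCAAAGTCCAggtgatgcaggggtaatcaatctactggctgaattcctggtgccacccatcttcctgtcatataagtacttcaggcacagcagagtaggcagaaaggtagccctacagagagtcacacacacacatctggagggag
Cyp2c70, chr19:40187237-40187536, minus strand: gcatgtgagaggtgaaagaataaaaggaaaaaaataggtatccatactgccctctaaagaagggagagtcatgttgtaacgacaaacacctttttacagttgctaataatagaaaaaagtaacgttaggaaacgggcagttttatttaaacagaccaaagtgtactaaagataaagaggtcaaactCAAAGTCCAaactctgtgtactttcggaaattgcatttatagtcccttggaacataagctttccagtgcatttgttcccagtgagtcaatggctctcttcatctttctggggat
Cyp8b1, chr9:121916256-121916555, minus strand: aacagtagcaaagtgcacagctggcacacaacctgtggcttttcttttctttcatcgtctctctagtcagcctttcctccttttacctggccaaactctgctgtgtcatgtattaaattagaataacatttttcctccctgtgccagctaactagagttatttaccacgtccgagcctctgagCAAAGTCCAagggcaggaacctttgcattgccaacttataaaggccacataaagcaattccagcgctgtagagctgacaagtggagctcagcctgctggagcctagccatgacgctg
Cyp2c29, chr19:39286835-39287134, plus strand: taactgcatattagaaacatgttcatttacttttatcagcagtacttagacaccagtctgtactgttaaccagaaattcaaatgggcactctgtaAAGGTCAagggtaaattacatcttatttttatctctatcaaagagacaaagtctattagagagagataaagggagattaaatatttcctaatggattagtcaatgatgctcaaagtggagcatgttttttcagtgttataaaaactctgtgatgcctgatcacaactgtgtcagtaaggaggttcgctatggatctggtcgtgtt

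These 4 were the members that held CAAAGTCCA, of 46 with a promoter, and 150 of 27025 genes (0.555%) held it. The match began 109 bases before the start in Cyp3a11, 95 in Cyp3a41a, 64 in Cyp2c70 and 67 in Cyp8b1. AAGGTCA was found in 4 members (Cyp2c29, Cyp2c39, Cyp2f2 and Cyp3a25) and in 5.38% of all genes. The dioxin response core TNGCGTG was found in 0 members and 5.84% of genes. A match describes letters in this window and is no evidence of binding.

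Across sorted cells of the 8 organs, with untreated liver standing for liver, P450 members were concentrated in liver. Untreated liver held 42 of the 63 members above 4.06, small intestine 25, kidney 23, lung 19, salivary gland and stomach 18 each, prostate 16 and uterus 15. Of the 50 members above that value in at least 1 organ, 28 had their highest mean in liver, 7 in small intestine, 6 in kidney, 4 in stomach, 3 in salivary gland, 1 in lung and 1 in uterus. Between 58.0% (kidney) and 62.1% (lung) of all genes exceeded the same value in these organs, so the count of members varied more than that of genes at large.

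**Figure D1:**
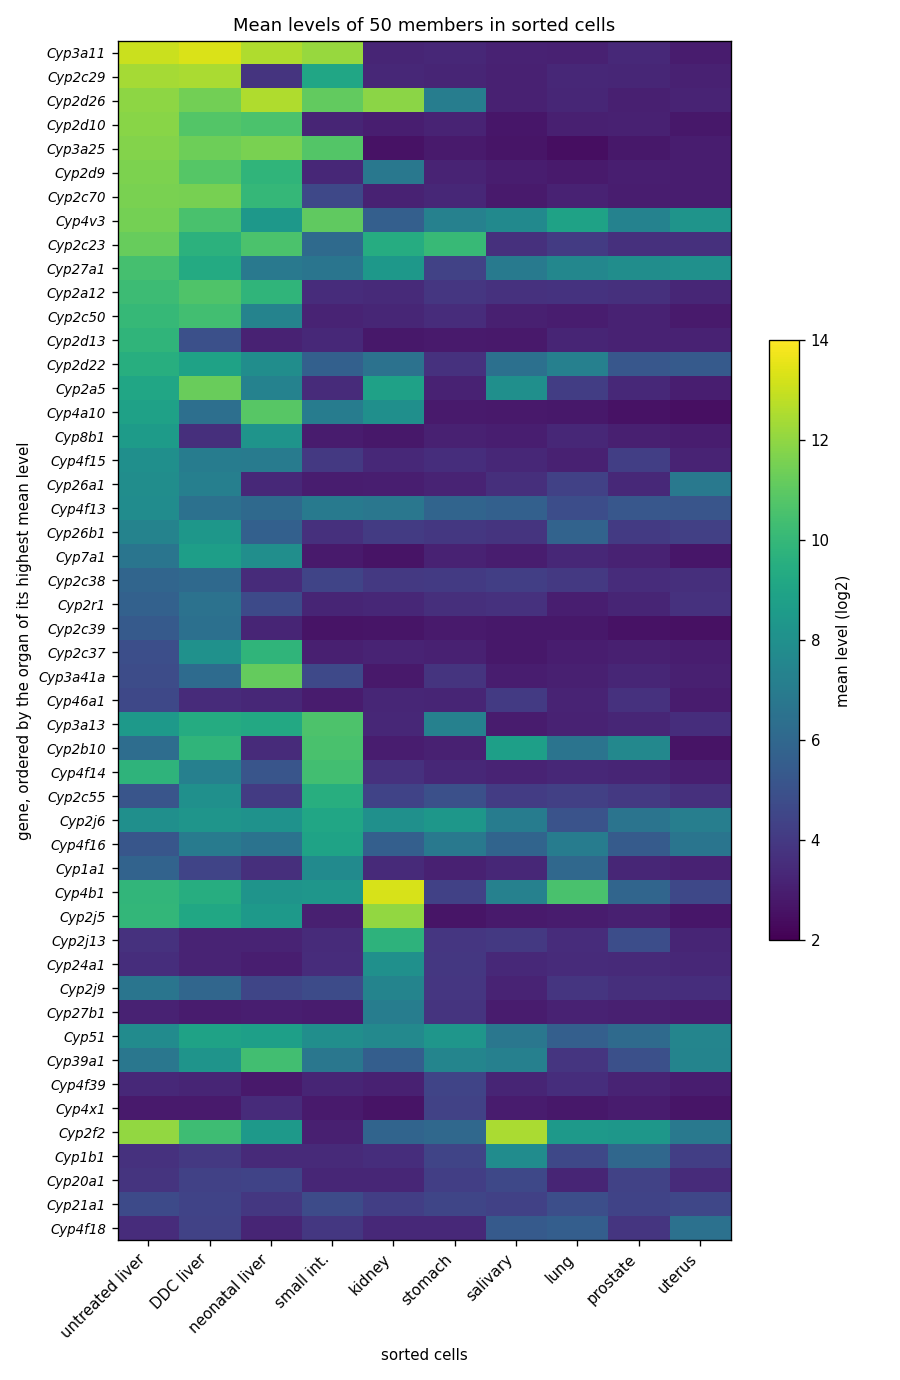
Heatmap of the mean log2 level of the 50 members above 4.06 in at least 1 organ (rows) in the 10 groups of sorted cells (columns), with colour as log2 level. Of the 50 rows 28 are brightest in untreated liver among the organs, with a block of Cyp3a, Cyp2b10 and Cyp4f14 in small intestine and Cyp2j5, Cyp2j13, Cyp24a1 and Cyp27b1 in kidney.

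Untreated liver cells were set against the average of the 7 other organs, to show which members marked liver. The comparison called 34 of 50 tested members higher, against 10.1% of all genes tested, and 3 lower, against 18.2%. The median difference was 1.89 over the members and -0.10 over all genes. Cyp2d10 and Cyp2d9, of the drug-metabolising 2d subfamily, differed by 8.85 ± 0.36 and 8.02 ± 0.35, and Cyp2c70, which hydroxylates bile acids in mice, by 8.29 ± 0.36. Cyp2c29 and Cyp2c50, of the 2c subfamily, were higher by 8.29 ± 0.23 and 6.89 ± 0.64, and Cyp2a12 by 6.63 ± 0.44. Cyp8b1, the sterol hydroxylase that sets the share of cholic acid, was 8.58 ± 1.43 in liver and differed by 5.56 ± 0.29 (adjusted p = 8.91e-18 with limma). The pooled error of Cyp8b1 rests largely on organs near background and understates its spread in liver. For each of these genes all 5 liver samples lay above all 23 samples of the other organs. The transcribed pseudogene Cyp2d13 showed the same separation, with a difference of 6.81 ± 0.45. Among the regulators of P450 genes, 12 of 16 tested were higher in liver and 2 lower, led by Nr1i3 (4.75) and Hnf4a (4.27), and Vdr, the vitamin D receptor, was lower (-2.51).

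Cyp3a11, the main drug-oxidising 3a enzyme of mouse liver, was shared between liver and small intestine. It stood at 13.05 ± 0.32 in liver, 12.16 ± 0.76 in small intestine and under 4.06 in the other 6 organs. Cyp2d26 was spread over liver (11.97 ± 0.98), kidney (11.93 ± 0.04) and small intestine (11.11 ± 0.72), and these ranges overlapped. Cyp2c23, an arachidonic acid epoxygenase, stood at 11.21 ± 1.10 in liver, 10.10 ± 0.24 in stomach and 9.43 ± 0.19 in kidney.

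Small intestinal cells were compared with the other 7 organs. Of 50 tested members 14 were higher (14.3% of all genes) and 6 lower (15.1%), with a median of -0.07 over the members and 0.03 over all genes. Cyp3a13, a 3a enzyme of gut epithelium, read 11.23, 10.29 and 10.42 in the 3 samples. It differed by 6.07 ± 0.58 (adjusted p = 1.13e-10 with limma) and all 3 samples lay above every sample of the other organs. Cyp2c55, of the 2c subfamily, read 9.78, 8.51 and 10.32, a difference of 5.17 ± 0.73. Cyp2b10, the classical target of CAR, read 11.42, 9.52 and 10.75, against at most 8.86 elsewhere, a difference of 5.14 ± 0.75. Cyp4f16, of the fatty acid hydroxylating 4f subfamily, was also higher without overlap (2.88 ± 0.32). Cyp2f2, an enzyme of airway club cells and liver, was lower in small intestine than in all other samples, at 3.40, 2.99 and 2.80 (difference -5.53 ± 0.66). Among the regulators 8 of 16 tested were higher and 1 lower, led by Hnf4a (4.91 ± 0.45), Vdr (4.84 ± 0.30) and Nr1i2 (3.82 ± 0.58).

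Kidney cells were compared in the same way. Of 50 tested members 11 were higher (16.3% of all genes) and 15 lower (17.2%), with a median of -0.28 over the members and -0.09 over all genes. Cyp2j5, an arachidonic acid epoxygenase of the proximal tubule, read between 11.9995 and 12.16 in the 4 kidney samples. All 4 values lay above those of the other organs, and the difference was 8.19 ± 0.45 (adjusted p = 2.98e-17 with limma). Its relative Cyp2j13 read 9.75, 9.89, 9.67 and 9.77, a difference of 5.96 ± 0.18. Cyp4b1, a fatty acid hydroxylase also found in lung, read 13.18 to 13.37 in kidney, above the 10.56 ± 1.26 of lung, a difference of 5.98 ± 0.61 against all organs. Both vitamin D enzymes of kidney, Cyp27b1, which activates it, and Cyp24a1, which degrades it, were high there, and read at most 3.97 and 4.18 in any sample of the other organs. Cyp24a1 read 8.09, 8.23, 7.91 and 7.82 (difference 4.49 ± 0.14, adjusted p = 4.41e-25 with limma). Cyp27b1 read 7.20, 7.02, 6.85 and 7.22 (difference 3.94 ± 0.16, adjusted p = 4.23e-21 with limma). Cyp4v3, a widely expressed fatty acid hydroxylase, was lower in kidney (5.63 ± 0.15) than in every other sample, by -3.22 ± 0.34. Among the regulators 4 of 16 tested were higher and 5 lower, with Hnf4a (4.97 ± 0.40) and Nr1h4 (4.83), the bile acid receptor, higher and Ahr (-2.82), the dioxin receptor, lower.

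**Figure D2:**
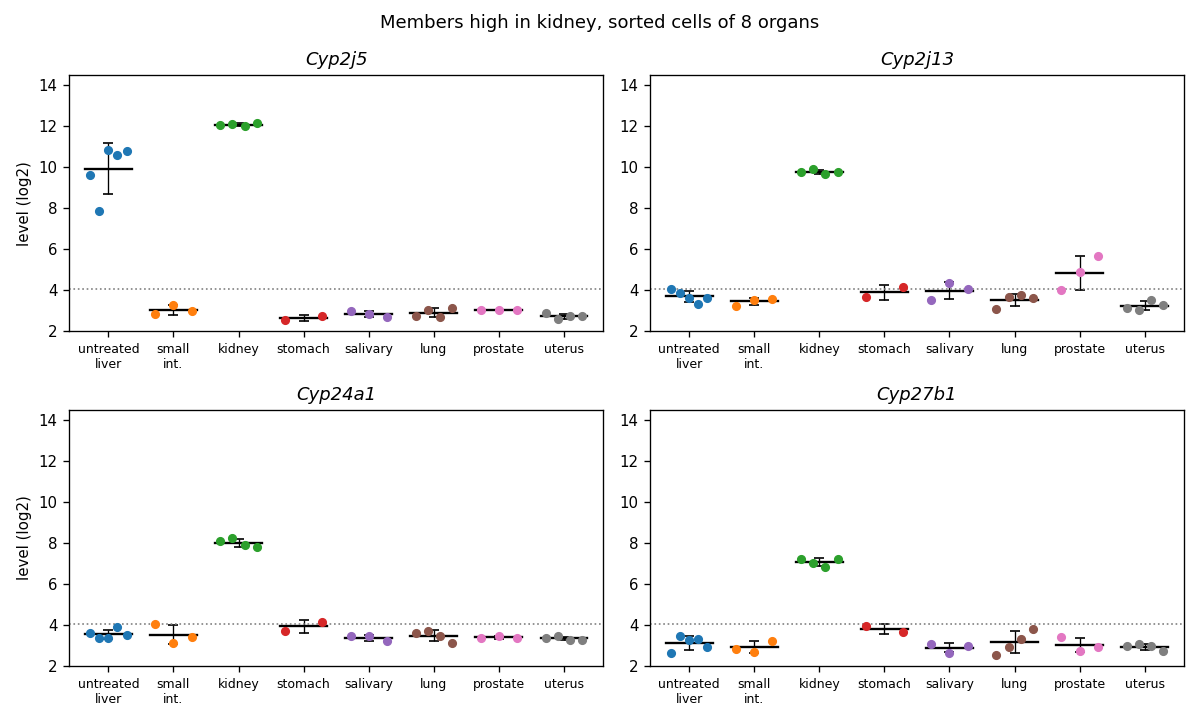
Log2 level of Cyp2j5, Cyp2j13, Cyp24a1 and Cyp27b1 (1 panel each) in sorted cells of 8 organs, with dots for samples, bars for mean ± SD and a dotted line at 4.06. The 4 kidney samples lie above all others in each panel, with Cyp2j5 between 11.9995 and 12.16, and liver is the other organ with raised Cyp2j5 (9.93 on average).

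Small intestine was set directly against kidney, the other absorptive epithelium. Of 33 tested members 12 were higher in small intestine (18.5% of all genes) and 11 in kidney (18.2% of all genes called lower in small intestine). None of these 23 overlapped, and neither did 99.1% of all called genes (36.4% of those tested). The 3a genes stood on the intestinal side, Cyp3a11 by 8.93 ± 0.26, Cyp3a25 by 8.16 ± 0.52 and Cyp3a13 by 7.30 ± 0.72, and kidney held them at or below 3.48. Cyp2b10 (7.63 ± 0.93), Cyp4f14 (6.66 ± 0.73) and Cyp2c29 (5.75 ± 0.35) were on that side too. On the kidney side were Cyp2j5 (-9.03 ± 0.64), Cyp2j13 (-6.32 ± 0.26), Cyp2a5 (-5.38 ± 0.72), a coumarin hydroxylase, and Cyp4b1 (-4.97 ± 0.86). None of the calls named here was lost under any alternative or with any sample left out.

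In the other 5 organs few members were higher and more were lower. In lung Cyp4b1 stood at 10.56 ± 1.26, Cyp4v3 at 8.91 ± 0.41 and Cyp2f2 at 8.49 ± 1.24, and in prostate Cyp2f2 stood at 8.37 ± 0.56 and Cyp27a1 at 7.87 ± 0.41. In uterus Cyp4v3 stood at 8.19 ± 0.39 and Cyp27a1 at 8.01 ± 0.33. These values are log2 levels of separate probe sets and give no order between the genes. Lung cells had 4 of 50 higher (12.8% of all genes) and 18 lower (18.6%). Cyp2j6, of the 2j subfamily, was lower in lung than in the other organs (-2.69 ± 0.33), as was Cyp39a1, an oxysterol hydroxylase (-2.72 ± 0.63). Prostate cells had 1 higher (10.4%) and 16 lower (7.26%), and salivary gland cells 4 higher (10.9%) and 13 lower (9.57%). Cyp2f2 read 12.32, 12.45 and 12.69 in salivary gland, within the range of liver (10.41 to 13.24), and Cyp2b10 read 8.68 to 8.86 there. Stomach cells had 4 higher (9.08%) and 13 lower (10%), among them Cyp27a1, the mitochondrial sterol hydroxylase, at 4.13 and 4.56 (difference -3.63 ± 0.55). Cyp4x1 was higher in stomach (1.55 ± 0.17), at 4.61 and 4.09 against at most 3.16 elsewhere. The stomach count of 17 rested on both samples, being 9 without sample 1 and 10 without sample 2. Uterus cells had 2 higher (15.3%) and 18 lower (7.38%), or 2 and 30 after median centring. The retinoic acid hydroxylase Cyp26a1 averaged 6.85 ± 2.28 in uterus, and Cyp4f18, which acts on leukotriene B4 in leukocytes, 6.48 ± 1.0. The 8 comparisons with other organs share samples, so their counts are not independent.

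Cells of neonatal liver were set against those of untreated liver. Cyp3a41a, Cyp3a44 and Cyp4a31 were higher and Cyp2c29, Cyp2d13 and Cyp27a1 lower in neonatal cells. Of 47 tested members 8 were higher (22% of all genes) and 20 lower (8.63%), and 19 of the 28 did not overlap. Over all genes 25.6% of those tested and 83.6% of those called were free of overlap in this comparison. The median difference was -0.56 over the members and -0.01 over all genes. Within the 2c subfamily 1 of 8 members rose and 5 fell, within 2d 0 of 5 tested rose and 4 fell, within 3a 2 of 5 rose and 0 fell, and within 4a 2 of 2 rose. The 2c gene that rose was Cyp2c37, at 9.54 to 10.12 in neonatal cells (4.97 ± 1.29), with untreated sample 5 (10.03) in their range and the other 4 at most 4.36.

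Cyp2c29, a constitutive epoxygenase of adult liver, read 12.14, 12.37, 12.09, 12.66 and 12.57 in untreated cells and 4.00, 3.90 and 3.44 in neonatal cells. All neonatal samples were at background while the untreated samples differed by less than 1. The difference was -8.59 ± 0.33 (adjusted p = 9.38e-21 with limma), and DDC samples read 11.77 to 13.05. Cyp2d13 read 6.92 to 11.60 in untreated and 2.79 to 3.40 in neonatal cells, a fall of 6.69 ± 0.66 on the log2 scale with no overlap. Cyp4f14, which inactivates leukotriene B4, read 8.41 to 11.23 against 4.91, 5.92 and 4.72 and fell by 4.61 ± 0.70. Cyp2f2 read 10.41 to 13.24 against 8.55, 8.12 and 8.77 and fell by 3.59 ± 0.79. Cyp4v3, at 11.49 ± 0.92 against 8.42 ± 0.34, fell by 3.08 ± 0.45 (adjusted p = 1.73e-06 with limma).

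Cyp3a41a, a 3a gene known as female predominant in adult mouse liver, read 3.92, 4.77, 4.88, 4.55 and 5.90 in untreated cells and 10.98, 11.56 and 10.98 in neonatal cells. All neonatal samples lay above all untreated samples, and the difference was 6.37 ± 0.59 (adjusted p = 2.22e-10 with limma). Cyp3a44, of the same subfamily and also known as female predominant, read 3.03 to 3.67 against 7.90, 8.35 and 7.97 (4.72 ± 0.28). Cyp2b9, likewise known as female predominant, read 6.51, 8.32 and 6.81 in neonatal cells (3.42 ± 0.84). Untreated sample 1, at 5.96, held more Cyp2b9 than the other 4 samples, which read 3.16 to 3.36. Cyp4a31, of the fatty acid hydroxylating 4a subfamily, read 2.40 to 3.41 against 6.31, 6.38 and 6.10 (3.44 ± 0.19). Cyp3a11 did not pass the test and read 12.49 to 12.75 in neonatal and 12.52 to 13.31 in untreated cells.

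Transcripts that depend on sex were read beside these genes, chosen after the values were seen. Eif2s3y, on the Y chromosome, was above 4.06 in all 5 untreated samples with Xist at 3.64 to 5.38, while all 3 neonatal samples held both Eif2s3y (8.02 to 8.93) and Xist (9.34 to 10.39). The part of sex in the Cyp3a41a, Cyp3a44 and Cyp2b9 differences was not tested and cannot be told apart from age in this comparison. Cholangiocyte markers averaged 7.28 to 8.07 in neonatal and 3.48 to 4.64 in untreated samples, with 7 of 7 against 4 of 7 above 4.06. Neutrophil markers averaged 7.09 to 8.64 against 3.57 to 4.58, with 6 of 7 against 2 of 7 above 4.06. Goblet cell markers averaged 5.07 to 5.71 against 3.53 to 4.87, and gastric markers 3.99 to 5.58 against 3.70 to 3.95. Prom1 differed as given, and the part of these in the results was not tested. Actin probe sets, whose 3' minus 5' difference grows as RNA degrades, differed on average by 0.80 in neonatal and by 1.45 in untreated cells.

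Of the 5 bile acid and oxysterol genes, 1 rose and 2 fell in neonatal cells. Cyp39a1 read 10.49, 10.15 and 10.47 against 5.29 to 8.37 and rose by 3.62 ± 0.85. Cyp27a1 read 6.69, 7.18 and 6.72 against 9.26 to 11.55 and fell by 3.58 ± 0.55 (adjusted p = 3.39e-06 with limma). Cyp46a1, the cholesterol 24-hydroxylase of brain, differed by -1.27 ± 0.31 at levels near background, a call lost with the compared groups alone (adjusted p = 0.0542 with limma) and under a 60th percentile filter, where it was not tested. Cyp7a1, the first and rate-limiting enzyme of bile acid synthesis, differed by 1.30 ± 0.58 and missed the threshold (adjusted p = 0.07 with limma), but was called without untreated sample 4 (1.84, adjusted p = 0.00621). Cyp8b1 read 8.11, 8.18 and 8.27, inside the untreated range of 6.94 to 10.13 (difference -0.39 ± 0.43). Untreated samples 1 and 2 read 6.94 and 7.17 and the others 9.16 to 10.13. Without the 6 liver samples of high endothelial score (markers averaging over 10), chosen after seeing the data, Cyp8b1 was called lower. That fit called 8 of 48 tested members higher (31% of all genes) and 28 lower (12.8%).

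Among genes with hormone and vitamin substrates, Cyp26a1 fell. It read 3.25, 3.23 and 3.68 in neonatal and 5.42 to 9.53 in untreated cells, a difference of -4.50 ± 1.09 (adjusted p = 0.00119 with limma), while Cyp26b1 (-1.70 ± 0.98) missed the threshold with untreated samples from 3.59 to 11.39. Cyp1a1, the dioxin-induced hydrocarbon hydroxylase, differed by -2.20 ± 0.78, a call lost without untreated sample 1 (-1.60) or 2 (-1.84) or neonatal sample 1 (-2.14) or 2 (-2.15). This call was also lost with the compared groups alone, array weights, a 60th percentile filter or without samples of high endothelial score. Untreated samples read 8.20, 7.26, 5.84, 4.10 and 3.73, and neonatal samples 3.51 to 3.84. Cyp4f16 (1.38 ± 0.39) lost its call without untreated sample 5 (0.99), after median centring (0.89) and with the compared groups alone (adjusted p = 0.107 with limma). Cyp51, of cholesterol synthesis (0.98 ± 0.67), Cyp2r1 (-1.02 ± 0.63) and Cyp21a1 (-0.73 ± 0.45) missed the threshold, and Cyp2r1 was called without untreated sample 2 (-1.48). With array weights or without samples of high endothelial score Cyp2r1 and Cyp21a1 were called, and Cyp26b1 was called without untreated sample 3. Cyp2b10 fell by 2.85 ± 0.90, but with the compared groups alone its adjusted p was 0.0674. That smaller fit called 15 members in place of 28.

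Genes that supply P450 enzymes and switch them on were read in the same comparison, and those called were lower in neonatal cells. The lists are short and stand beside the shares of all genes given above for this comparison. Of 5 tested redox partners 0 rose and 1, Cyb5b, fell (-1.48 ± 0.41). Of 9 haem synthesis genes 0 rose and 4 fell, among them Alas1, the rate-limiting enzyme (-2.18 ± 0.54). Of the regulators 0 rose and 3 fell, Nr1i3 (-1.50), Rxra (-1.43 ± 0.27), the shared partner of nuclear receptors, and Cebpa (-1.18).

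**Figure D3:**
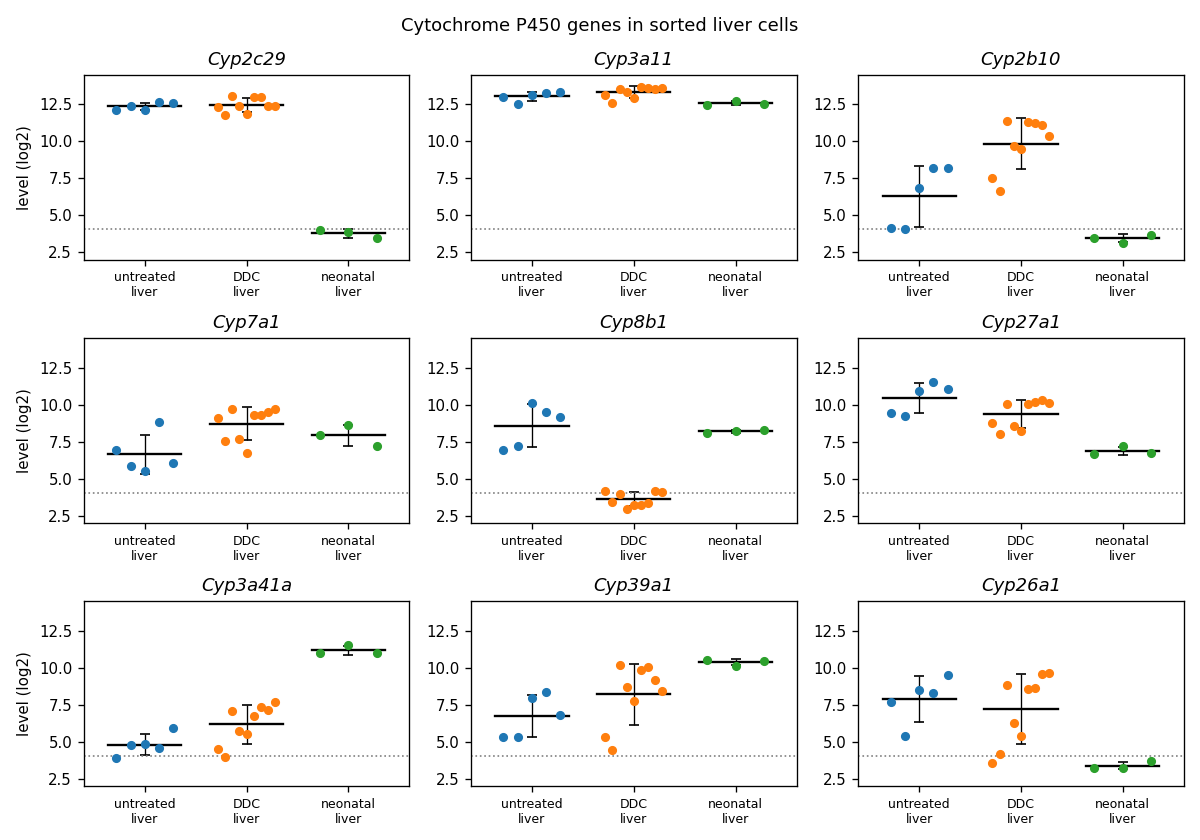
Log2 level of 9 members (1 panel each) in sorted cells of untreated, DDC and neonatal liver, with dots for samples, bars for mean ± SD and a dotted line at 4.06. Cyp2c29 is at 3.44 to 4.00 in neonatal cells only, Cyp8b1 is at 2.96 to 4.17 after DDC only, and Cyp3a41a steps from 3.92 to 5.90 in untreated to 10.98 to 11.56 in neonatal cells and runs from 3.95 to 7.68 after DDC.

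Liver cells after DDC were compared with untreated liver cells, which also served as the control of the neonatal comparison. The clearest change was in Cyp8b1, which fell to background, while the CAR target Cyp2b10 and Cyp7a1 rose. Of 47 tested members 8 rose (16.2% of all genes) and 10 fell (5.49%), and 3 of the 18 did not overlap, against 34.1% of all called genes (7.4% of those tested). After median centring 6 rose and 13 fell, and with the compared groups alone 10 members were called. The median was -0.17 over the members and -0.01 over all genes.

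Cyp8b1 read 6.94, 7.17, 10.13, 9.48 and 9.16 in untreated samples and 2.96 to 4.17 in the 9 DDC samples, with a median of 3.41. All DDC samples lay below all untreated samples, and the fall was 4.98 ± 0.33 (adjusted p = 1.13e-13 with limma). This pooled error again understates the spread of the untreated samples. Cyp2d13 read 6.92 to 11.60 against 3.19 to 6.36 and fell by 4.92 ± 0.51 with no overlap. Cyp4f16 read 3.63 to 6.23 in untreated and 6.85 to 7.34 in DDC samples, a rise of 1.79 ± 0.29 with no overlap. Cyp27a1 fell by 1.08 ± 0.42, a call that was lost without untreated sample 3, 4 or 5 or DDC sample 1, 2, 4 or 5 (values of -0.80 to -1.01).

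Cyp7a1 read 6.93, 5.88, 5.54, 8.80 and 6.07 in untreated and 6.71 to 9.71 in DDC samples, with a median of 9.28. Untreated samples 1 and 4 reached into the DDC range, and the rise was 2.08 ± 0.45 (adjusted p = 0.000362 with limma). Cyp39a1 read 4.42 to 10.18 after DDC (1.46 ± 0.65, adjusted p = 0.0698 with limma), and 2.41 without the DDC samples 1 and 2, whose Prom1 was low, an alternative chosen after seeing the data. It was called then, and with array weights. Leaving out untreated sample 4, DDC sample 1 or 2, or the samples of high endothelial score also led to a call. Among hormone and vitamin genes Cyp17a1, the steroid 17 alpha-hydroxylase, rose by 1.25 ± 0.37 from background, a call lost after median centring (0.92) and with the compared groups alone. Cyp1a1 (-1.37 ± 0.60), Cyp26a1 (-0.69 ± 0.83), Cyp26b1 (0.97 ± 0.75), Cyp2r1 (0.84 ± 0.48), Cyp21a1 (-0.27 ± 0.35) and Cyp51 (1.09 ± 0.51) missed the threshold. Some of these were called under an alternative. Cyp1a1 was called after quantile normalization (-1.47) or median centring (-1.70) and without untreated sample 4 or 5 or DDC sample 3 or 7. Cyp51 was called with probe sets averaged (1.14) or array weights (1.08) and without untreated sample 3 or DDC sample 2 or 5, and Cyp2r1 without DDC sample 2 or 5 (1.10 and 1.11). Cyp51 and Cyp2r1 were also called without the samples of low Prom1 or of high endothelial score. Cyp26b1 was called without untreated sample 1 or without the samples of high endothelial score. It read 9.69 to 10.09 in DDC samples 1, 2, 4 and 5, which had high endothelial scores, and 6.77 to 7.86 in the other DDC samples. The part of endothelial cells in this was not tested. Cyp46a1 fell by 1.14 ± 0.24 near background, a call lost without untreated sample 3 (-0.97) or 4 (-0.96) and under a 60th percentile filter.

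Further members were called although their samples overlapped, and are given as chosen after their values were seen. Cyp2b10 read 4.16, 4.11, 6.85, 8.20 and 8.19 in untreated samples and 6.62 to 11.38 after DDC, with a median of 10.34. The 3 higher untreated samples lay within the DDC range, and the rise was 3.55 ± 0.69 (adjusted p = 0.000109 with limma). Cyp2c55 (2.86 ± 0.66), Cyp2a5 (2.15 ± 0.53) and Cyp3a41a (1.38 ± 0.45) also rose. Cyp2c37 was split within both groups, at 3.15 to 4.36 in 4 untreated samples and 10.03 in sample 5, and at 3.05 and 3.07 in DDC samples 2 and 1 and 7.79 to 10.58 in the others. Among members that fell, Cyp4f14 (-2.57 ± 0.53), Cyp4a10 (-2.50 ± 0.63) and Cyp2f2 (-1.78 ± 0.60) had overlapping groups as well.

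DDC samples 1 and 2, with low Prom1 and high endothelial markers, held the lowest Cyp39a1 (5.35 and 4.42) and Cyp26a1 (3.59 and 4.18) of the 9. Without them 20 members were called, 14 higher (16% of all genes) and 6 lower (5.18%). Without the 6 liver samples of high endothelial score, another alternative chosen after seeing the data, 26 were called, 15 higher (23% of all genes) and 11 lower (7.93%). The actin 3' minus 5' difference of control probe sets averaged 1.0 after DDC, and 1 DDC sample of 9 had high Xist without Eif2s3y. Their part in the results was not tested. Of 9 tested haem genes 1 rose, Hmox1, which breaks haem down (1.93 ± 0.68), and 1 fell, the mitochondrial carrier Slc25a38 (-1.04). Of the regulators 0 rose and 1 fell, Nr1i3, which encodes CAR, at 6.59 after DDC and 8.41 in untreated cells (-1.82 ± 0.47, adjusted p = 0.00235 with limma).

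Neonatal cells, with high Prom1, and DDC cells, 7 of 9 with Prom1 above 4.06, were compared directly. Of 48 tested members 5 were higher in neonatal cells (8.15% of all genes) and 15 lower (4.36%), and 14 of the 20 did not overlap, against 81.9% of all called genes (10.2% of those tested). The median was -0.40 over the members and -0.01 over all genes. Cyp3a41a (4.98 ± 0.54), Cyp8b1 (4.59 ± 0.39), Cyp4a10 (4.52 ± 0.76), Cyp3a44 (4.25 ± 0.26) and Cyp4a31 (3.54 ± 0.17) were higher. Cyp2c29 (-8.68 ± 0.30), Cyp2b10 (-6.40 ± 0.82), Cyp2a5 (-3.92 ± 0.63) and Cyp2c55 (-3.90 ± 0.79) were lower, as was Cyp26b1 (-2.68), whose call was lost on leaving out DDC sample 1, 2, 4 or 5 or any neonatal sample. Cyp27a1 (-2.50 ± 0.50), Cyp2c38 (-2.61 ± 0.62) and Cyp2c39 (-3.18 ± 0.74) were lower without overlap. Cyp26a1 was lower as well (-3.81 ± 1.0), at 3.39 ± 0.26 against 7.20 ± 2.36, a call lost with the compared groups alone (adjusted p = 0.0571 with limma). Cyp17a1 (-0.62), Cyp1a1 (-0.83), Cyp21a1 (-0.46) and Cyp51 (-0.12) missed the threshold. With array weights Cyp17a1 (-1.14) and Cyp1a1 (-1.17) were called, and without samples of high endothelial score Cyp17a1 (-1.36) and Cyp51 (-1.14). Cyp17a1 was also called without the DDC samples of low Prom1 (-1.07). Cyp2r1 (-1.86) lost its call with the compared groups alone and without neonatal sample 1 (-1.85) or 3 (-1.58). Cyp7a1 (-0.78, adjusted p = 0.358 with limma) and Cyp39a1 (2.16, adjusted p = 0.0539 with limma) missed the threshold. Cyp39a1 was called after quantile normalization, with array weights or without DDC sample 3, 6, 7 or 8. Cyp7a1 was called with array weights or without samples of high endothelial score. Cyp3a41a in DDC samples ran from 3.95 to 7.68, so neonatal cells lay above all DDC and all untreated samples. Without the DDC samples of high endothelial score 32 members were called, 5 higher (10.3% of all genes) and 27 lower (6.72%).

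HCC/CC tumours were compared with untreated liver cells, a control shared with the preceding comparisons. P450 genes were widely present in these tumours, with the mean of 45 members above 4.06 against 42 in untreated cells. Of 47 tested members 7 were higher (17.4% of all genes) and 11 lower (6.23%), with a median of -0.19 over the members and 0.03 over all genes. Of the 18, 3 were free of overlap, against 25.1% of all called genes (5.92% of those tested). After median centring the split was 5 higher and 14 lower. The 3 members free of overlap were Cyp17a1, Cyp3a41a and Cyp4f16.

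Cyp17a1, near background in untreated cells (3.20 ± 0.41), read 4.50 to 9.40 in the 14 tumours with a median of 6.56. The difference was 3.76 ± 0.62 (adjusted p = 0.000118 with limma). Cyp3a41a read 5.99 to 12.51 in tumours and at most 5.90 in untreated cells, a difference of 3.47 ± 1.05 (adjusted p = 0.0122 with limma). Tumours 4, 5, 6, 8 and 13 read 9.76 or more and the other 9 at most 7.57. Cyp4f16 read 6.23 to 7.54 and differed by 1.72 ± 0.34 (adjusted p = 0.000546 with limma). Its groups nearly touched, with the lowest tumour at 6.2318 and the highest untreated sample at 6.2302.

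Among members whose samples overlapped, Cyp8b1 was lower by 4.15 ± 0.89, where 12 tumours read 2.82 to 5.65 but tumours 4 (8.25) and 9 (8.70) lay in the untreated range. Cyp1a1 was lower by 2.29 ± 0.49, at 3.02 to 4.60 in tumours and 3.73 to 8.20 in untreated cells. Cyp2f2 was not called as a group and read 11.64 or more in 11 tumours, but 3.81, 7.29 and 7.78 in tumours 2, 3 and 11. In tumours 2 and 11 cholangiocyte markers averaged 10.58 and 9.12 and hepatocyte markers 10.59 and 10.70, against 3.61 to 7.45 and 11.41 to 12.37 in the other 12. Untreated cells had cholangiocyte markers of 3.48 to 4.64 and neutrophil markers of 3.57 to 4.58, against 3.82 to 7.91 for the latter in tumours. Actin differed between 3' and 5' probe sets by 0.87 in tumours and 1.45 in untreated cells, and the part of these in the results was not tested. Of the regulators 1 was higher and 2 were lower, namely Nr1i2 (1.67 ± 0.59), Nr1i3 (-2.43 ± 0.80) and Ahr (-1.24).

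Sex transcripts also differed between these groups. All 5 untreated samples had Eif2s3y, whereas 12 of 14 tumours had high Xist and Eif2s3y under 4.06, and tumours 11 and 13 had Eif2s3y. Those 2 tumours read 6.86 and 9.76 for Cyp3a41a, above all untreated samples. With only those 2 tumours, an alternative chosen after seeing the data, limma called 0 of 48 tested members after adjustment and 15 at an unadjusted p under 0.05, 7 higher and 8 lower. Of all genes tested in that fit 0.849% were called higher and 0.159% lower. The share of all genes at that unadjusted p was not counted, so the 15 say nothing particular to the members. The differences of Cyp17a1 (3.83), Cyp3a41a (3.51) and Cyp4f16 (1.96) were then as large, with adjusted p of 0.0887, 0.0941 and 0.201. Without the untreated samples of high endothelial score, also chosen after seeing the data, Cyp3a41a missed the threshold (3.16, adjusted p = 0.0584 with limma).

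**Figure D4:**
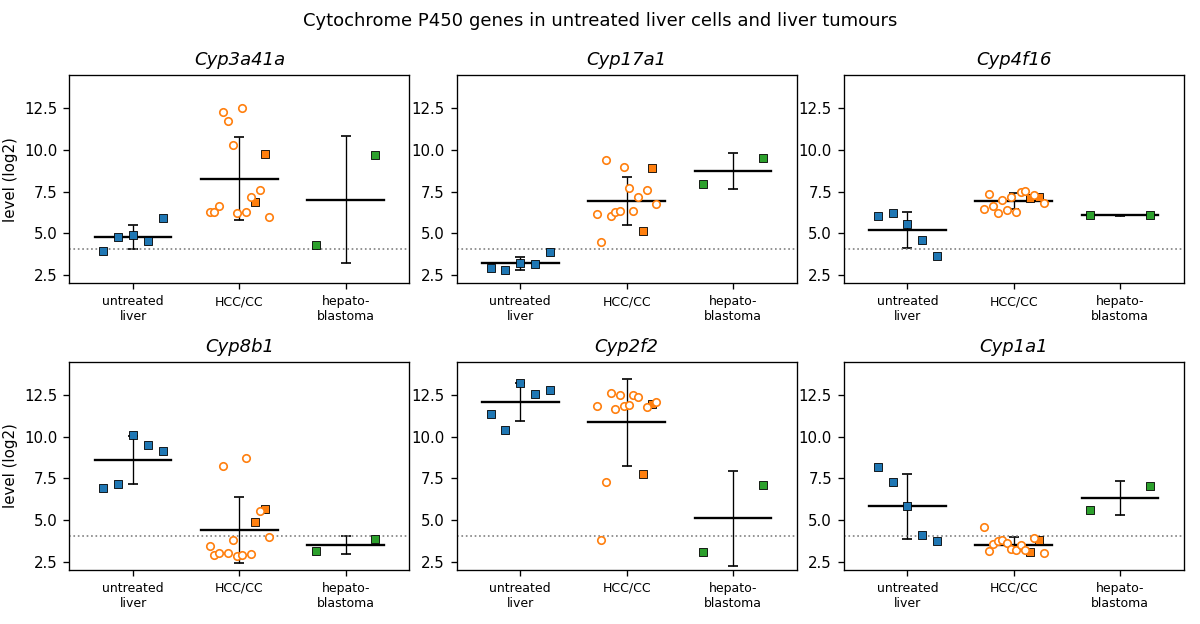
Log2 level of 6 members (1 panel each) in untreated liver cells, HCC/CC and hepatoblastoma, with filled squares for samples with Eif2s3y above 4.06, open circles for those without and a dotted line at 4.06. Cyp17a1 and Cyp4f16 are above all untreated samples in all 14 HCC/CC, though the lowest Cyp4f16 (6.2318) nearly touches an untreated sample (6.2302). Cyp8b1 is low in all but 2 of the HCC/CC.

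Hepatoblastoma, of 2 samples, was compared with HCC/CC. Of 48 tested members 6 were higher (3.27% of all genes) and 2 lower (2.82%), with a median of -0.12 over the members and 0.01 over all genes. Cyp1a1 read 5.59 and 7.04 against 3.02 to 4.60 (2.78 ± 0.28, adjusted p = 6.39e-10 with limma). That error pools all primary tumour groups, among them gastric adenoma near background (3.25 ± 0.22). In the 2 hepatoblastomas the SD of Cyp1a1 was 1.02, so its p-value overstates the certainty. Its call was lost under a 60th percentile filter, and it read 3.30 in the hepatoblastoma lung metastasis. Cyp4f15, of the 4f subfamily, read 9.08 and 9.28 against 4.55 to 7.86 (2.69 ± 0.58). Cyp27a1 read 10.48 and 11.53 (1.90 ± 0.51), a call lost without hepatoblastoma sample 2 (1.37, adjusted p = 0.201 with limma). Without that sample 17 members were called in place of 8. Ahr, the receptor known to induce Cyp1a1, was also higher (2.43 ± 0.43, adjusted p = 0.000123 with limma), and a link between them was not tested. Both hepatoblastomas had Eif2s3y and 12 of 14 HCC/CC did not. Without those 12, an alternative chosen after seeing the data, 8 of 48 tested members were higher (3.78% of all genes) and 4 lower (3.65%). The part of sex in the differences was not tested beyond this.

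Small intestinal adenoma was compared with sorted small intestinal cells. Several drug-metabolising and fatty acid enzymes, among them Cyp3a11, Cyp2b10 and Cyp2c29, were lower in adenoma, and Cyp1b1 was higher. Cyp3a13 did not pass the test (-1.46 ± 0.83), at 7.81, 11.28 and 8.49 in adenoma and 10.29 to 11.23 in sorted cells. Of 30 tested members 3 were higher (13.6% of all genes) and 14 lower (8.43%), and none of the 17 overlapped. Of all called genes 99.8% did not overlap either (22% of those tested). The median was -0.35 over the members and -0.08 over all genes.

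Cyp3a11 read 12.84, 11.34 and 12.28 in sorted cells and 3.77, 6.70 and 3.29 in adenoma, a fall of 7.57 ± 0.87 (adjusted p = 0.00163 with limma). Cyp2b10 read 9.52 to 11.42 against 2.78, 3.89 and 3.09 and fell by 7.31 ± 0.51. Cyp3a25 (-6.93 ± 1.22), Cyp2c29 (-5.67 ± 0.57), Cyp2d26 (-5.26 ± 1.13), Cyp1a1 (-4.51 ± 0.64) and Cyp4v3 (-4.40 ± 0.58) fell too. Cyp4f14 read 4.17, 8.58 and 4.20 in adenoma and fell by 4.71 ± 1.13, but its adjusted p passed 0.05 without adenoma sample 1 or 3 or any of the 3 sorted samples (0.0512 to 0.0644). Adenoma sample 2 had the highest Cyp3a11, Cyp2b10 and Cyp4f14 of the 3, and its enterocyte markers averaged 10.25 against 6.54 and 7.04 in the others and 11.07 to 12.04 in sorted cells. The part of the share of enterocytes was not tested.

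Cyp1b1, a hydrocarbon and oestrogen hydroxylase often found in stroma, read 3.05 to 3.83 in sorted cells and 8.23, 8.34 and 8.05 in adenoma, a rise of 4.77 ± 0.26 (adjusted p = 0.000252 with limma). Cyp51 rose by 1.02 ± 0.25, a call lost without adenoma sample 2 (0.80) or 3 (0.99) or any sorted sample. Cyp11a1, which cuts the cholesterol side chain, read 6.65, 6.44 and 7.19 against 3.44 to 4.36 (2.99 ± 0.34, adjusted p = 0.00158 with limma). Its other probe set read 2.91 to 3.09 in adenoma and had a Pearson r of 0.0281 with this one over all samples. That other probe set read 10.54 in the gastric adenocarcinoma liver metastasis, which held adrenal steroid genes. The probe set used here read at most 7.19 in any sample. The Cyp11a1 result is therefore uncertain, and whether this probe set reads Cyp11a1 RNA was not tested. Of 16 tested regulators 0 rose and 8 fell, among them Ppara (-3.38 ± 0.61), Nr5a2 (-3.17), Nr1i3 (-2.97), Vdr (-2.89) and Nr1i2 (-1.97), and 0 redox partners rose and 2 fell. Without adenoma sample 3 the count was 11 members in place of 17.

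**Figure D5:**
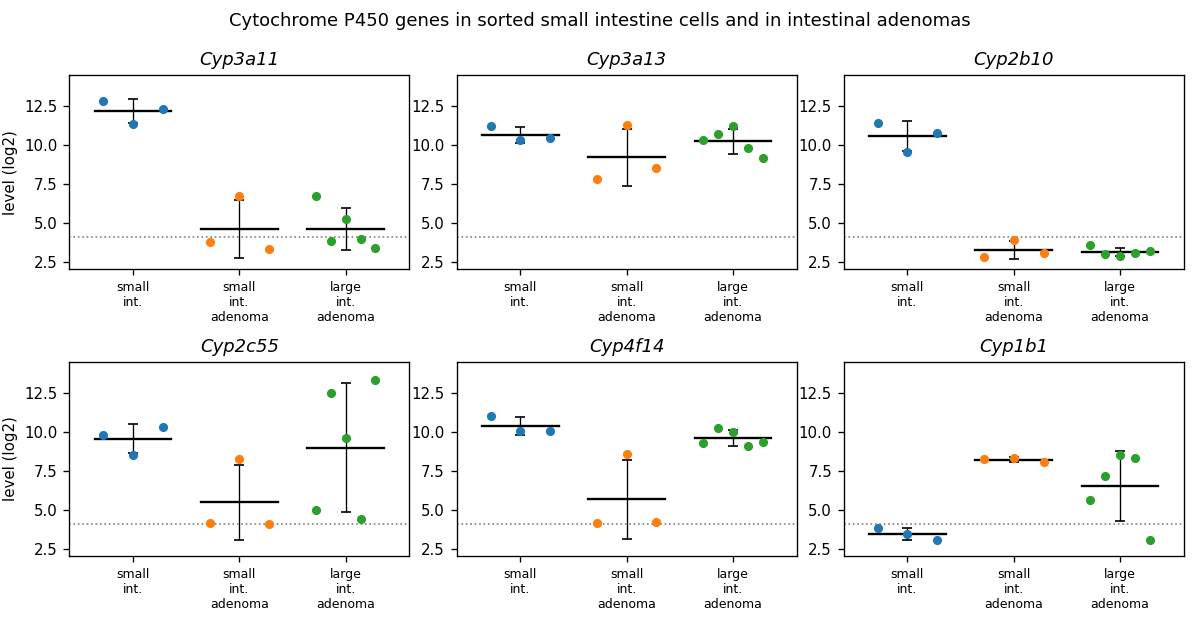
Log2 level of Cyp3a11, Cyp3a13, Cyp2b10, Cyp2c55, Cyp4f14 and Cyp1b1 (1 panel each) in sorted small intestinal cells, small intestinal adenoma and large intestinal adenoma, with dots for samples, bars for mean ± SD and a dotted line at 4.06. Cyp3a11 and Cyp2b10 are low in both adenomas, Cyp4f14 is at 9.05 to 10.24 in large intestinal adenoma, and small intestinal adenoma sample 2 lies above the other 2 in Cyp3a13, Cyp2c55 and Cyp4f14.

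Large was compared with small intestinal adenoma. Of 26 tested members 6 were higher in large intestinal adenoma (6.6% of all genes) and 2 lower (6.32%), with a median of 0.10 over the members and 0.02 over all genes. Cyp4f14 read 9.05 to 10.24 in the 5 large intestinal adenomas, above all 3 small intestinal ones (3.94 ± 1.01, adjusted p = 0.00468 with limma), a call lost without small intestinal adenoma sample 1 (3.20) or 3 (3.22). Cyp2d22 (1.58 ± 0.46) lost its call without sample 3 (1.51). Cyp27a1 read 5.01 to 6.21 against 7.30 to 7.59 (-1.60 ± 0.49), a call lost without any of the 3 small intestinal adenomas. Cyp11a1 read 3.05 to 4.87 and differed by -2.92 ± 0.29, with the same doubt about its probe set. Cyp2c55 was scattered in large intestinal adenoma, at 5.0, 12.51, 9.62, 4.41 and 13.32. All 3 small intestinal adenomas had Eif2s3y, while 4 of 5 large intestinal adenomas had high Xist and 1 had Eif2s3y. Enterocyte markers averaged 6.54, 10.25 and 7.04 in small and 7.65 to 10.35 in large intestinal adenoma. The part of either in the results was not tested. The count of 8 was 5 without large intestinal adenoma sample 2, 4 without sample 5 and 2 without small intestinal adenoma sample 1 or 3.

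In the other tumours fewer members were tested and fewer were called. In gastric adenoma against the 2 stomach samples, 3 of 25 tested members were higher (8.07% of all genes) and 4 lower (3.07%), or 1 and 4 after quantile normalization and 2 and 5 after median centring. Cyp3a13 was higher (1.85 ± 0.33, adjusted p = 0.00652 with limma), a call lost without stomach sample 2 (1.71, adjusted p = 0.0537). Every other call, Cyp1b1 (2.58 ± 0.77) and Cyp2c23 (-1.17 ± 0.30) among them, was lost on leaving out either stomach sample, and between 1 and 6 members were called with a sample left out. Gastric adenoma sample 4 held Cyp3a11 at 11.56 and Cyp2b10 at 8.68, against at most 6.0 and 5.01 in the other 6. In prostatic adenocarcinoma 3 of 19 tested members were higher (12.4%) and 3 lower (8.69%), and Cyp2j13 was the member free of overlap, as were 15% of all genes (-1.69 ± 0.29, adjusted p = 0.00114 with limma). The count was 3 without prostate sample 2, and 0 higher and 3 lower after median centring. In uterine carcinoma 0 of 17 tested members were higher by limma (8.57%) and 3 lower (10.1%), namely Cyp27a1 (-3.31 ± 0.58), Cyp4f18 (-2.69 ± 0.52) and Cyp4v3 (-1.92 ± 0.37), all without overlap, as were 18.1% of all genes.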

How the data were processed

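Each sample was measured on 1 Affymetrix mouse array. The authors deposited log2 values of 1.85 to 14.36, with array medians of 3.82 to 4.24. The submitters' processing notes name Partek 6.6. Which background correction, normalization and summarization were used is not given in the sources here. The deposited scale was kept, and the number of arrays limits the precision.

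Of 45141 probe sets, 104 controls, 551 naming several genes and 15588 naming none were left out. The other 28898, of which RefSeq held 28689, gave 17097 genes by the highest mean. No array was a copy of another (closest pair r = 0.993, differing by up to 1.75 for 1 probe set). Among the members 11 had several probe sets, and 5 (Cyp2a5, Cyp2b10, Cyp2c23, Cyp4a10 and Cyp4v3) rest on probe sets of names that mark cross-hybridisation.

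Differences were fitted on all genes with limma 3.58.1 (R 4.3.3, with 1.17.8 of data.table) and an intensity trend, with Benjamini-Hochberg adjustment within each comparison. The fits held all 40 samples of sorted cells (30 residual degrees of freedom), the 2 compared groups for tumour against sorted cells, or all primary tumour groups. The fitting script was tested on simulated data. Plots used matplotlib 3.10.9 and tables pandas 2.3.3 (Python 3.11.15, numpy 2.4.6).

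Named were called members of largest change, up to 8 per direction, whose groups do not overlap, and in liver states the members with defined substrates whatever their values. Exceptions are marked. Members and lists were chosen with earlier results of these data known. The fits were repeated after quantile normalization or median centring, unfiltered or above the 60th percentile, with probe sets averaged or the cross-hybridising ones left out, on other samples, with array weights, with no trend, and without each sample in turn.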

Additional observations from a re-analysis of the deposited data

Results flagged for a closer look

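In lung cells Cyp39a1 read 3.09 in sample 3, with the nearest of the other 3 samples at 4.04, a gap large for the group's range. In untreated liver cells Cyp2b9 read 5.96 in sample 1, with the next sample at 3.36. These were 2 of 73 groups of values tested for a sample far from the others, and chance marks about 1 in 20. Cyp4f16 moved in opposite directions in tumours of different organs, by 1.72 in HCC/CC against untreated liver cells and by -1.92 in small intestinal adenoma against small intestinal cells. No sample of the compared groups overlapped in either, though in liver the groups nearly touched (6.2318 against 6.2302). The difference between both effects was not tested.

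Samples that entered no comparison held members at levels over the highest sample of the 8 sorted organs, with untreated liver standing for liver, by more than 3 on the log2 scale. Cells of neonatal and DDC liver were not part of that limit. In the gastric adenocarcinoma liver metastasis Cyp11b1, the last enzyme of corticosterone synthesis, was 11.91 and Cyp11b2, the aldosterone synthase, 7.97. The highest of all sorted organ samples were 4.05 and 3.83. In the hepatoblastoma lung metastasis Cyp17a1 was 11.04 and Cyp3a44 was 7.82, the latter below the 7.90 to 8.35 of neonatal liver cells. The primary hepatoblastomas read 7.98 and 9.52 for Cyp17a1 and 7.61 and 4.85 for Cyp3a44. In the uterine carcinoma liver metastasis Cyp3a41a was 11.31, within the 10.98 to 11.56 of neonatal liver cells. Cyp4f39, which makes the ultra-long omega-hydroxy fatty acids of the skin barrier, was 9.73 in perineal, 9.49 in perioral and 10.38 in periorbital squamous cell carcinoma, against at most 4.95 in the sorted organs.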

How the results depend on the processing

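No paired analysis was possible because the labels give no shared replicate numbers. Quantile normalization, no filter, the mean of probe sets, leaving out cross-hybridising probe sets and no trend kept all 19 counts of called members within 1.5 times. Quantile normalization moved the median of all genes by -0.32 to 0.12, and median centring by -0.55 to 0.25. Under median centring uterus gave 32 and prostatic adenocarcinoma 3. A 60th percentile filter gave 2 for prostatic adenocarcinoma and 5 for large against small intestinal adenoma. Other samples in the fit gave 15 for neonatal and 10 for DDC against untreated liver, 3 for gastric adenoma, 5 for uterine carcinoma and 3 for hepatoblastoma. Array weights gave 2 for gastric adenoma, 5 for hepatoblastoma and 15 for large against small intestinal adenoma. With each sample left out the counts ran from 9 to 10 for stomach, 11 to 17 for small intestinal adenoma, 3 to 9 for prostatic adenocarcinoma, 1 to 6 for gastric adenoma, 8 to 17 for hepatoblastoma and 2 to 11 for large against small intestinal adenoma. Among alternatives chosen after seeing the data, neonatal against DDC liver gave 32 without samples of high endothelial score, and HCC/CC gave 0 with the 2 tumours that hold Eif2s3y (15 at an unadjusted p under 0.05 with limma). Of all genes in the latter fit 0.849% were called higher and 0.159% lower. Some uncalled members changed sign. Cyp21a1 after DDC ran from -0.53 to 0.0764 with each sample left out. Cyp51 in neonatal against DDC cells ran from -0.38 to 0.0598, and against untreated cells it was -0.12 without samples of high endothelial score. After DDC, Cyp26a1 was 0.25 without samples of low Prom1 and 0.29 without those of high endothelial score, and Cyp1a1 was 0.48 without the latter. The cause of these changes was not tested. Groups of 2 to 5 samples and levels near background limit the precision of most comparisons.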

Other observations

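The gastric adenocarcinoma liver metastasis held several genes of adrenal steroid synthesis, given here as values of 1 sample. These genes are not typical of stomach or liver, so its values are given for the sample labelled so, and whether the label is right was not tested. Beside Cyp11b1 and Cyp11b2, Cyp21a1 was 8.92, against at most 6.10 in the other 102 samples. Star, which carries cholesterol into mitochondria, was 9.83 (at most 5.58 elsewhere), Mc2r, the receptor of adrenocorticotropin, 8.22 (at most 3.89) and Hsd3b1 11.92 (at most 9.63). The second probe set of Cyp11a1 was 10.54 there. Hepatocyte markers averaged 4.82 and gastric markers 3.70 in this sample.

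In the squamous cell carcinomas of skin, Cyp51 was 10.29 ± 0.51 in perineal (n = 4), 9.52 ± 0.13 in perioral (n = 3) and 9.65 in periorbital (n = 1) tumours. Cyp2b19, an epoxygenase of keratinocytes, was 5.33 ± 0.89 in perineal tumours. The periorbital tumour held Cyp2f2 at 11.14, with salivary markers at 7.11 on average, against 13.42 in salivary gland cells and 2.71 to 2.88 in the other squamous cell carcinomas. The uterine carcinoma liver metastasis held Cyp3a11 at 11.996 with hepatocyte markers at 10.30 on average, and the hepatoblastoma lung metastasis held Cyp2d26 at 12.35.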
